A study of Mus musculus with 24 samples.

Results

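The caveolin and cavin family comprises here 6 genes, the caveolins Cav1 and Cav2, the cavins Cavin1, Cavin2 and Cavin3, and Ehd2, among the 46603 annotated genes counted in each library. The family was chosen by the measured levels of Cav2, which rose strongly at the latest timepoint, and these are given below as a description, without a test. Its relatives were taken as members by name, and each of the 6 symbols matched 1 Ensembl identifier in the count tables. Mouse retinal organoids (MROs), small aggregates of retinal tissue, were grown from wildtype E14Tg2a mouse embryonic stem cells with a trisection protocol, and all received only water as the solvent control. Total RNA of 24 individual MROs was sequenced after removal of ribosomal RNA, 6 MROs at each of day (D) 20, D22, D25 and D30, from 1 independent experiment and 1 cell line. The sample titles carry a control tag at D22, D25 and D30, but not at D20. The p-values therefore measure the spread between organoids of 1 experiment. Whole organoids were lysed, so fewer cells of a type and less RNA per cell cannot be told apart in any level given here.

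Caveolae are small flask-shaped pits of the plasma membrane that take part in mechanical buffering, lipid handling, endocytosis and signaling. Caveolin-1 and caveolin-2 form the integral membrane coat, in which caveolin-1 is required outside muscle and caveolin-2 forms mixed oligomers with it, while the cavins assemble a peripheral coat around the pit, with Cavin1 required for its formation. Ehd2, an ATPase, forms a ring at the neck of the pit and holds it at the cell surface. In the retina, caveolin-1 is known from Müller glia, the radial glia that span the tissue, and from vascular cells and the pigment epithelium.

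Between 13634846 and 19477108 reads per MRO were counted on a feature, and 3 counts corresponded to between 0.154 and 0.22 CPM, counts scaled to a fixed library size, which covers counting error only. Levels are CPM scaled by the TMM method (normalized CPM). As a check of the labelled tissue, the photoreceptor genes Rcvrn, which encodes recoverin, and Gnat1, which encodes rod transducin, were detected, with means of 2.89 and 0.247 normalized CPM at D20 and 484 and 269 at D30. The D20 mean of Gnat1 was close to the level of 3 counts, so Gnat1 is no check at D20. The mean of normalized counts over all 24 MROs was 146.4 for Cav1, 70.19 for Cav2, 58.14 for Cavin1, 12.12 for Cavin2, 14.62 for Cavin3 and 180.0 for Ehd2, so all 6 passed the minimum of 10. At D20 the mean raw count was only 8.83 for Cav2, 6.67 for Cavin2 and 7.67 for Cavin3, which passed through the later timepoints where they were higher.

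Cav1 and Cav2 lie next to each other on mouse chromosome 6 (GRCm38), both on the plus strand. Cav2 (ENSMUSG00000000058) spans chr6:17281185-17289115 and Cav1 (ENSMUSG00000007655) spans chr6:17306335-17341452, with 17219 bases between them. The antisense gene Gm15581 overlaps both, and since the strand setting of the counting is not given in the sources used here its reads cannot be told apart with certainty. Gm15581 itself had at most 8 counts in any MRO.

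The promoter windows of Cav2, Cav1 and Cavin1, whose levels were all higher at D30 than at D20, and of Ehd2, whose level was lower, are shown to set the members side by side. Each runs from 250 bases before to 50 bases after the RefSeq start of the gene, read 5′ to 3′ on the strand of the gene (RefSeq, GRCm38.p6), and 5 of the 6 members are in the table, Cavin3 not among them. Capitals mark matches on either strand to 5 motifs, the GC box GGGCGG, the CCAAT box CCAAT, the TATA box TATAAA, the AP-1 element TGANTCA and the TEAD element GGAATG. The windows are chr6:17280935-17281234 (plus) for Cav2, chr6:17306085-17306384 (plus) for Cav1, chr11:100970568-100970867 (minus) for Cavin1 and chr7:15967486-15967785 (minus) for Ehd2.
Cav2: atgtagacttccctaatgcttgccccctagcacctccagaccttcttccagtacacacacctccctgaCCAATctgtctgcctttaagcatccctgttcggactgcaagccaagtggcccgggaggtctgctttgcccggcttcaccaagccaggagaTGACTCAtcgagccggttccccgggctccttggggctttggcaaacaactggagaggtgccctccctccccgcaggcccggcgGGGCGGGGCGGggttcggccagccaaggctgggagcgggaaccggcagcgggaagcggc
Cav1: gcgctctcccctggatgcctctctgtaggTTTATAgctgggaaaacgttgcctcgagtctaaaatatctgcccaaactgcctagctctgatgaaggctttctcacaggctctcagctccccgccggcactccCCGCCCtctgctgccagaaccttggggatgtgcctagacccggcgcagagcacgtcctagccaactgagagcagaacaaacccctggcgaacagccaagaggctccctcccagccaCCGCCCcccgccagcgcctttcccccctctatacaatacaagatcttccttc
Cavin1: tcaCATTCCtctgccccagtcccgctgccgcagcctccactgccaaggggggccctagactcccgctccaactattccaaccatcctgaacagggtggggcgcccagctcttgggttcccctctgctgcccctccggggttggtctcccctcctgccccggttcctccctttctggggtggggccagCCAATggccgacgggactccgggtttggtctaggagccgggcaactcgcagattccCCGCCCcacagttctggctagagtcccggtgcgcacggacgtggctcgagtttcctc
Ehd2: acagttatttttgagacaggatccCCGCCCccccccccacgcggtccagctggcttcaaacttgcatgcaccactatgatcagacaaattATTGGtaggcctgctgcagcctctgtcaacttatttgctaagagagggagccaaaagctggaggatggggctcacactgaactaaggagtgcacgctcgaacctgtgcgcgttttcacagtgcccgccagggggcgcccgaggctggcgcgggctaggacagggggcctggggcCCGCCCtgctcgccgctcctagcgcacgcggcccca
Positions count from the start, which is base 1, with the base before it at -1, and name the first base of a match. The Cav2 window held GC boxes at -9 and -4, which share 1 base, a CCAAT box at -182 and an AP-1 element at -92. The Cav1 window held GC boxes at -118 and -2 and a TATA box letter match at -221, and a further RefSeq window of Cav1 held none of the 5 motifs. The Cavin1 window held a GC box at -7, a CCAAT box at -63 and a TEAD element at -247. The Ehd2 window held GC boxes at -226 and 15 and a CCAAT box at -160. The Cavin2 window held a CCAAT box at -140 as its single match. Of the 32851 windows of the same length in the table, 35.7% held a GC box, 37.4% a CCAAT box, 13.6% a TATA box, 7.81% an AP-1 element and 14.7% a TEAD element, so the commoner of these letters are frequent in any window. These matches describe letters and were not tested for binding.

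Cav2 was nearly silent at the first 2 timepoints and reached its highest values at D30. Its raw counts were 2, 4, 6, 17, 0 and 24 in the 6 MROs of D20 and 1, 24, 3, 3, 17 and 11 in those of D22. They were 96, 31, 26, 62, 24 and 63 at D25 and 473, 232, 158, 161, 254 and 80 at D30. As normalized CPM, the lowest, median and highest MRO were at 0, 0.341 and 1.54 at D20, 0.0613, 0.469 and 1.68 at D22, 1.43, 2.80 and 5.56 at D25, and 4.44, 12.6 and 27 at D30. Every D30 MRO was above every D20 MRO. Replicate 6 of D30 was below replicate 1 of D25, while the other 5 MROs of D30 were above all of D25. The fitted log2 difference was 0.19 between D20 and D22, 2.15 between D22 and D25 and 2.19 between D25 and D30, and over the whole period it was 4.53, or 23.0-fold. The first of these had no stable sign, with -0.304 without D22 replicate 2, -0.062 without D20 replicate 5, -0.055 without D22 replicate 5, -0.008 without D20 replicate 1 and 0.761 without D20 replicate 6. The spread between organoids of 1 timepoint was wide for Cav2, with a coefficient of variation of 105% at D20 and 56.3% at D30.

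**Figure D1:**
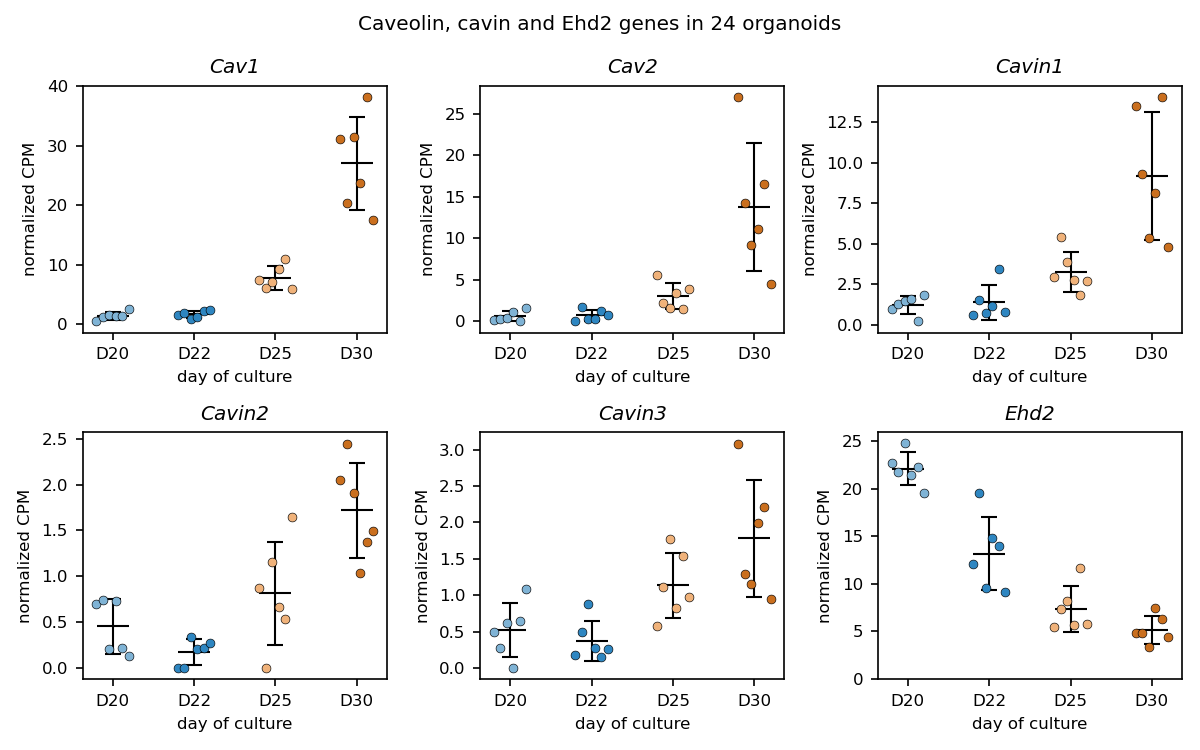
Normalized CPM (y axis, linear, own scale per panel) of the 6 genes in each of 24 MROs by day of culture (x axis), with 1 point per MRO and the mean ± SD of 6 MROs in black. Cav1, Cav2 and Cavin1 in the upper row had all D30 points above all D20 points, and Ehd2 went the other way, from 22.1 ± 1.72 at D20 to 5.20 ± 1.47 at D30.

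Cav1, the main structural caveolin, rose in both late intervals. Counts were 6, 16, 21, 20, 18 and 39 at D20, 23, 26, 13, 16, 29 and 35 at D22, 127, 86, 116, 166, 184 and 96 at D25, and 546, 332, 543, 346, 585 and 315 at D30. At D20 the normalized CPM was 1.34 ± 0.674 and at D22 1.60 ± 0.570 (mean ± SD, n = 6 MROs), then 7.74 ± 1.97 at D25 with 27.1 ± 7.85 by D30. The D20 and D22 values overlapped, whereas all 6 MROs of D25 were above all of D22 and all 6 of D30 were above all of D25. Cav1 did not differ detectably between D22 and D20 (log2 difference 0.25, SE 0.301, edgeR adjusted p = 0.737). It rose from D22 to D25 by 2.27 on the log2 scale (SE 0.279, edgeR adjusted p = 3.95e-06) and from D25 to D30 by 1.80 (SE 0.254, edgeR adjusted p = 1.6e-05). From D20 to D30 the rise was 20.0-fold (log2 difference 4.32, SE 0.295, edgeR adjusted p = 7.31e-13). These 3 calls for Cav1 held in all 19 alternative settings computed for each comparison.

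Per length of exon, Cav2 made up 25.8% ± 16.2 of the sum of Cav1 and Cav2 at D20, 25.1% ± 15.9 at D22, then 28.3% ± 12.2 at D25 and finally 32.7% ± 10.3 at D30 (mean ± SD, n = 6). At D30 the share was between 20.8% and 47.2%, highest in replicate 1 and lowest in replicate 6. The ranges of the 4 timepoints overlapped, and Cav1 was above Cav2 per length in 6 of 6 MROs at D30. The share contains Cav2 and was not tested.

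Cavin1, the cavin required for caveola formation (ENSMUSG00000004044, chr11:100956733-100970887, minus strand), rose over the whole time course. Counts were 14, 19, 21, 24, 3 and 29 at D20, 10, 22, 11, 17, 48 and 12 at D22, 51, 78, 63, 50, 31 and 44 at D25, and 236, 152, 92, 118, 215 and 87 at D30. The mean was 1.23 ± 0.577 normalized CPM at D20, 1.38 ± 1.07 at D22, then 3.26 ± 1.25 at D25 and finally 9.18 ± 3.92 at D30 (SD, n = 6). Each pair of successive timepoints overlapped, and all 6 MROs of D30 were above all of D20. The rise from D20 to D30 was 7.41-fold (log2 difference 2.89, SE 0.406, edgeR adjusted p = 1.1e-06). The single steps gave log2 differences of 0.16 up to D22 (edgeR adjusted p = 0.897), 1.24 up to D25 (adjusted p = 0.0406) and 1.5 up to D30 (adjusted p = 0.0107), and none of the 3 passed the threshold of 0.01. The step to D25 passed without D22 replicate 5, the MRO with 48 counts (edgeR adjusted p = 0.00445). The step to D30 passed without D25 replicate 2, without D30 replicate 3 or without D30 replicate 6 (edgeR adjusted p = 0.00747, 0.00813 and 0.00505) and with 4 other settings.

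Cavin2, a cavin known from endothelium and other tissues (ENSMUSG00000045954, chr1:51289126-51302960, plus strand), stayed low throughout. Its counts were 10, 11, 3, 11, 3 and 2 at D20, 0, 0, 5, 3, 3 and 4 at D22, 15, 0, 19, 12, 9 and 27 at D25, and 36, 40, 33, 15, 21 and 27 at D30. At 3 counts or fewer were 3 MROs of D20, 4 of D22 and 1 of D25, and none of D30, so the early levels are set by few reads. The mean was 0.452 ± 0.297 normalized CPM at D20, 0.171 ± 0.140 at D22, then 0.813 ± 0.562 at D25 and finally 1.72 ± 0.514 at D30 (SD, n = 6). All 6 MROs of D30 were above all of D20, but the log2 difference of 1.91 (SE 0.638) did not pass 0.01 (edgeR adjusted p = 0.018). It passed with DESeq2's test and with the compared timepoints only. Cavin2 passed the filter through the later timepoints, where it was higher, so its p-values cannot decide whether it rose. The step between D22 and D25, where 5 of 6 MROs of D25 were above all of D22, gave 2.21 (SE 0.701, edgeR adjusted p = 0.037) and passed without D25 replicate 2, the MRO with 0 counts (adjusted p = 0.00957), and with DESeq2's test. The other steps gave -1.37 up to D22 (edgeR adjusted p = 0.321) and 1.07 between D25 and D30 (adjusted p = 0.38).

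Cavin3, a tumor-suppressor candidate that binds protein kinase C delta (ENSMUSG00000037060, chr7:105480083-105482300, minus strand), was as low. Its counts were 7, 4, 9, 0, 9 and 17 at D20, 3, 7, 13, 4, 2 and 4 at D22, 10, 16, 29, 15, 26 and 16 at D25, and 54, 21, 20, 29, 34 and 17 at D30. The mean was 0.518 ± 0.369 normalized CPM at D20, 0.372 ± 0.275 at D22, then 1.14 ± 0.448 at D25 and finally 1.78 ± 0.809 at D30 (SD, n = 6). Of the D30 MROs, 5 were above all of D20 and replicate 6 was not. The D30 against D20 difference was 1.77 on the log2 scale (SE 0.541) and missed the threshold narrowly (edgeR adjusted p = 0.0101). It passed without D20 replicate 6 (edgeR adjusted p = 0.00433) or without D30 replicate 6 (adjusted p = 0.00768), and with DESeq2's test, DESeq2's size factors or annotated genes only. Cavin3 too passed the filter through the later timepoints, where it was higher, so its p-values cannot decide whether it rose. The single steps gave -0.47 up to D22 (edgeR adjusted p = 0.739), 1.59 up to D25 (adjusted p = 0.0613) and 0.65 up to D30 (adjusted p = 0.588).

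Ehd2, the ATPase of the caveola neck (ENSMUSG00000074364, chr7:15946958-15967567, minus strand), was the member that fell. Its counts were 325, 324, 361, 325, 313 and 306 at D20, 197, 280, 142, 217, 194 and 137 at D22, 94, 106, 135, 103, 196 and 94 at D25, and 85, 79, 58, 109, 96 and 79 at D30. The mean normalized CPM was 22.1 ± 1.72 at D20, 13.2 ± 3.86 at D22, then 7.36 ± 2.38 at D25 and finally 5.20 ± 1.47 at D30 (SD, n = 6). The D20 MROs lay close together, with a coefficient of variation of 7.76%, against between 28.2% and 32.3% at the later timepoints. All 6 MROs of D30 were below all of D20, and Ehd2 was 4.26-fold lower (log2 difference -2.09, SE 0.210, edgeR adjusted p = 2.43e-09). All 6 MROs of D22 were also below all of D20, by a narrow margin between 19.5 and 19.6 normalized CPM, and the log2 difference of -0.75 (SE 0.200) did not pass 0.01 (edgeR adjusted p = 0.0248). Between D22 and D25 Ehd2 fell by 0.84 (log2) (SE 0.204, edgeR adjusted p = 0.0063). That call was lost when any 1 of 8 MROs was left out, D22 replicates 1, 2, 4 or 5 or D25 replicates 1, 2, 4 or 6, with adjusted p between 0.0107 and 0.022, and also with filterByExpr (0.0101) or the compared timepoints only (0.0152). From D25 to D30 the log2 difference was -0.50 (SE 0.207, edgeR adjusted p = 0.169). The joint test of the 4 timepoints passed for Ehd2 (edgeR adjusted p = 3.73e-09), as it did for Cav1 (3.66e-14) and Cavin1 (2.98e-07).

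**Figure D2:**
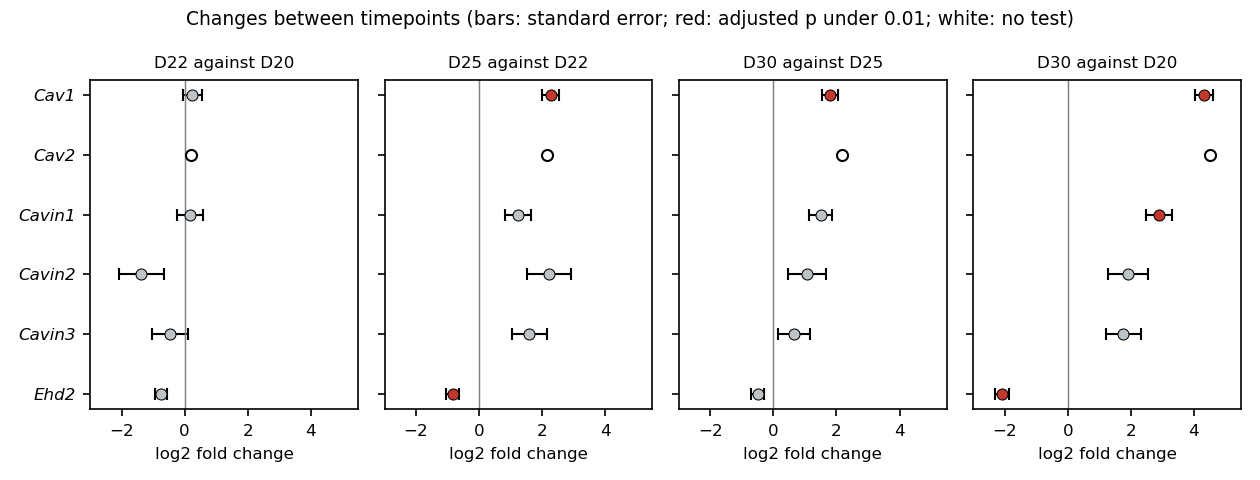
Log2 fold change (x axis, later minus earlier timepoint) of each member (y axis) in 4 comparisons, with the standard error as a bar. Red points passed an edgeR adjusted p of 0.01, grey points did not, and the white point is Cav2, which chose the family and was not tested. Cav1 is red in 3 panels and Ehd2 in 2, on opposite sides of 0.

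Counted over the 5 members other than Cav2, 0 were called for D22 against D20 with edgeR, where 1.62% of all 46949 features tested were called higher and 0.285% lower. At an unadjusted p under 0.05, 1 member was past in that comparison, and DESeq2 called 1, in both cases Ehd2. For D25 against D22, 1 member was called higher (Cav1) and 1 lower (Ehd2), against 3.08% and 2.19% of all features. For D30 against D25, 1 was called higher (Cav1), against 1.76% of all features higher and 1.75% lower. For D30 against D20, 2 were called higher (Cav1 and Cavin1) and 1 lower (Ehd2), against 13.9% and 13.0% of all features. In the joint test Cav1, Cavin1 and Ehd2 were called, where 27.2% of all features were. Cavin2 and Cavin3 are not counted there, since they passed the filter through the later timepoints. The members are annotated genes, and among the annotated genes tested larger shares were called. These were 2.56% higher and 0.763% lower for D22 against D20, and 7.33% and 2.92% for D25 against D22. They were 4.55% and 2.83% for D30 against D25, and 25.1% and 16.7% for D30 against D20. The median log2 difference of all features tested for D30 against D20 was -0.038, and that of the annotated genes tested was 0.099.

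Levels between genes were compared per length, as normalized CPM per kilobase of exon. At D20 Ehd2 stood highest at 4.32 ± 0.335, above every other member in every MRO, and the other 5 lay between 0.148 for Cavin2 and 0.389 for Cav1, with ranges that overlapped. At D30 the order was Cav1 at 7.86 ± 2.28, Cav2 at 4.12 ± 2.32, Cavin1 at 2.56 ± 1.09, Cavin3 at 1.07 ± 0.487, Ehd2 at 1.02 ± 0.286 and Cavin2 at 0.563 ± 0.168 (SD, n = 6). Each neighbour in that D30 order overlapped the next in range. Ehd2 thus went from the highest of the 6 means to the fifth.

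**Figure D3:**
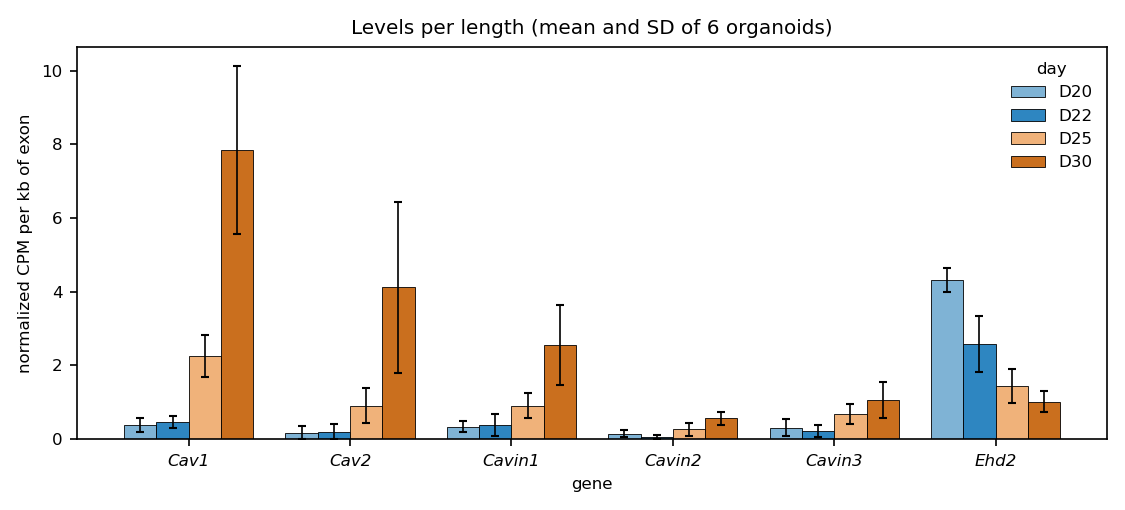
Mean level of each gene (x axis) in normalized CPM per kilobase of exon (y axis, from 0) at D20, D22, D25 and D30, with the SD of 6 MROs as bars. Ehd2 had the tallest bar at D20 with 4.32 and Cav1 the tallest at D30 with 7.86.

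The log2 ratio of Cavin1 to Cav1 per length, with 0.5 counts added to each, was computed after the values were seen. Its mean was -0.25 ± 1.20 at D20, -0.45 ± 0.818 at D22, then -1.34 ± 0.812 at D25 and finally -1.68 ± 0.525 at D30 (SD, n = 6). For D30 against D20 the difference was -1.43 in an exact two-sided permutation test over the 924 arrangements of the MROs (p = 0.026, adjusted over the 4 comparisons p = 0.104), where 0.00216 is the smallest p possible. The difference in the ratio did not pass the correction.

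Of 11 other genes of caveolae and membrane bending, 10 could be tested, and for D30 against D20 6 were called higher and 1 lower, with a median log2 difference of 0.61. Of the 16253 annotated genes tested, 25.1% were called higher and 16.7% lower. The largest rises were in Ehd3 (log2 difference 1.83, edgeR adjusted p = 8.35e-09) and Ehd4 (1.75, adjusted p = 5.89e-08), relatives of Ehd2 that act in endosomal traffic. Pacsin2, which bends membranes at caveolae, rose by 1.65 (edgeR adjusted p = 1.63e-12), and was also called higher for D22 against D20 (log2 difference 0.61, adjusted p = 0.00129). Ehd1 differed by 0.01 (edgeR adjusted p = 0.954). Cavin4, the muscle cavin, fell by 1.36 from a mean of 6.34 normalized CPM at D20 to 2.47 at D30 (edgeR adjusted p = 0.000298). Cav3, the muscle caveolin, had 0 counts in 23 of 24 MROs and 1 count in the other.

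Among 10 kinases and receptors known from caveolae, 9 could be tested, with a median log2 difference of -0.18 for D30 against D20. Of the 9, 3 were called higher and 3 lower, against 25.1% and 16.7% of the annotated genes tested. Tgfbr1 fell by 1.19 on the log2 scale. Tgfbr2, the partner that forms the TGF-beta receptor complex with it, was among the 3 called higher (log2 difference 2.38). Tgfbr2 had a mean of 0.618 normalized CPM at D20 and passed the filter through the later timepoints, so its call cannot decide on a rise. Nos3, the endothelial nitric oxide synthase that caveolin-1 is known to bind, rose by 1.83 (edgeR adjusted p = 0.00165), from a mean of 1.04 to 3.70 normalized CPM. Src, which phosphorylates caveolin-1, had a log2 difference of -0.37 (edgeR adjusted p = 0.0452).

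Marker lists of cell types known to hold caveolae were summed beside the caveolins, and no test of a shared course was run. Of the annotated genes tested, for comparison, 25.1% were called higher and 16.7% lower for D30 against D20. The summed level of 10 Müller glia markers was between 1250 and 1680 normalized CPM at D20, 1050 and 1320 at D22, 1200 and 1650 at D25, and 1670 and 5040 at D30. Its median was 1430, 1140, 1310 and 3080 at these timepoints in turn. The sum is weighted by its most abundant genes, among them Dkk3, with a mean of 649 at D20 and 249 at D25. At D30 the most abundant were Apoe, with a mean of 1130, and Slc1a3, with 544. For D25 against D22, 3 of the 10 markers were called higher and 2 lower, against 7.33% and 2.92% of the annotated genes tested. For D30 against D20, 7 of the 10 were called higher and 2 lower, with Aqp4, a water channel, at 4.05, Kcnj10, a potassium channel, at 3.28 and Slc1a3, a glutamate transporter, at 3.07 on the log2 scale, and Dkk3 at -1.15 and Sox9 at -1.13 lower. The 6 genes of reactive glia and astrocytes summed to between 1.81 and 26.7 normalized CPM at D20 and between 131 and 2250 at D30. All 4 that could be tested were called higher, led by Gfap, an intermediate filament gene, with a log2 difference of 7.18. Among them, S100b had a mean of 0.0873 normalized CPM at D20 and passed the filter through the later timepoints, so its call cannot decide on a rise. Gfap, at a mean of 982 normalized CPM, made up most of the D30 sum of this list. The 6 fibroblast and mesenchyme markers summed to between 9.15 and 29.4 at D20 and between 66.4 and 294 at D30, and 5 of 6 were called higher, with Col3a1 at 4.08, Dcn at 3.79 and Col1a2 at 3.39. The largest part of that D30 sum was Pdgfra, also called higher (log2 difference 3.09), with a mean of 85.9 normalized CPM. The 8 pericyte and smooth muscle markers ranged from 10 to 29.7 at D20 and from 12.5 to 80.7 at D30, with 2 called higher (Rgs5 at 3.35 and Tagln at 1.67) and 1 lower (Des at -2.82) of 6 tested. Des had a mean of 0.299 normalized CPM at D30 and passed the filter through the earlier timepoints, so its call cannot decide on a fall. The part of these cell types in the rise of Cav1, Cav2 and Cavin1 was not tested.

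Endothelial cells are rich in caveolae in the body, and their 10 markers differed widely in level. The highest count in any MRO was 1 for Tie1, 10 for Cdh5, 13 for Esam, 17 for Emcn, 27 for Plvap, 33 for Pecam1, 46 for Tek and 57 for Cldn5, but 352 for Flt1 and 4879 for Kdr. The sum of the 10 endothelial markers went from between 260 and 345 normalized CPM at D20 to between 137 and 230 at D30, and most of it was Kdr, which progenitors of the retina also express, at a mean of 280 at D20 and 169 at D30. Of the 4 testable, Flt1 (log2 difference 3.48) and Pecam1 (2.97) were called higher and Cldn5 (-5.88) and Kdr (-0.73) lower. Pecam1 had a mean of 0.167 normalized CPM at D20 and Cldn5 of 0.0379 at D30. Each passed the filter through the timepoints where it was higher, so its call cannot decide on a change. Over the annotated genes tested, 25.1% were called higher and 16.7% lower for D30 against D20. Of the 8 pigment epithelium markers, 6 were tested, with 1 called higher (Mitf, 1.34) and 2 lower (Lrat, -2.93, and Dct, -2.35), and Rpe65 had at most 3 counts. Of 5 adipocyte markers, only Fabp4 could be tested (log2 difference 3.05) and Lep was at 0 in all 24 MROs. Of the 5 skeletal muscle markers only Actn2 could be tested (2.59), and of the 6 microglia and macrophage markers none, with a summed level of at most 1.28 normalized CPM. Fabp4 and Actn2 had means of 0.342 and 0.358 normalized CPM at D20. They passed the filter through the later timepoints, so their differences cannot decide on a rise. Of the 6 surface epithelium markers, Krt18 (log2 difference -0.63, edgeR adjusted p = 0.0396) and Epcam (-0.80, adjusted p = 0.159) could be tested.

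Within D30 the MROs ranked alike for several of these measures and in another order for others. From highest to lowest, the order for Cav2 was replicates 1, 5, 2, 4, 3 and 6, and the summed Müller glia markers had the same order, with 5040, 3940, 3090, 3070, 2480 and 1670 normalized CPM. For Cavin1 it was 5, 1, 2, 4, 3 and 6, which was also the order of the reactive glia list, with 2250, 2140, 738, 630, 315 and 131, and of the fibroblast and mesenchyme list, with 294, 257, 155, 138, 109 and 66.4. Cav1 followed another order, 5, 3, 1, 4, 2 and 6. Replicate 6 was the lowest MRO of D30 for Cav1, Cav2, Cavin1 and Cavin3, as for 7 of the 13 lists, those of Müller glia, reactive glia, fibroblasts, pericytes, skeletal muscle and microglia and that of the kinases and receptors. The skeletal muscle and microglia lists were low, with sums of at most 6.53 and 1.24 normalized CPM at D30. The endothelial list went another way, with 230 in replicate 6 as its highest value and 137 in replicate 1 as its lowest. The adipocyte list was also highest in replicate 6. These orders were noticed among 13 lists and 6 genes in 6 MROs, and are given as a description.

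**Figure D4:**
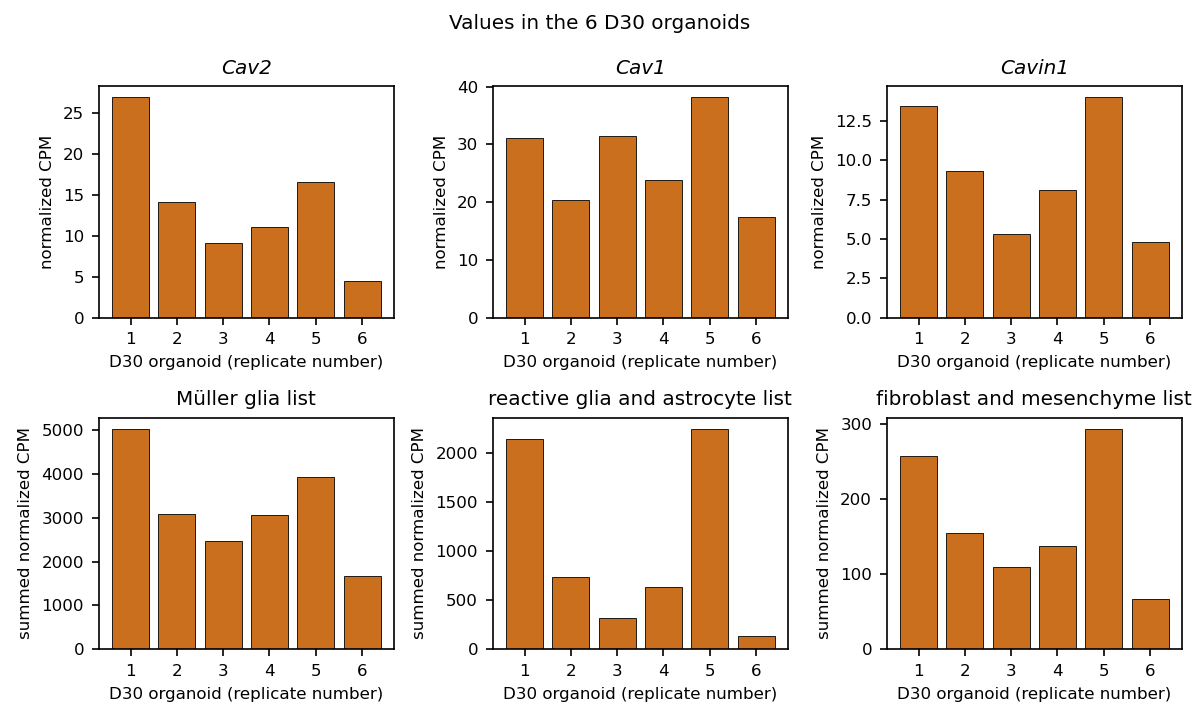
Level in each D30 MRO (x axis, replicate number) of Cav2, Cav1 and Cavin1 in normalized CPM (upper row) and of the summed Müller glia, reactive glia and astrocyte, and fibroblast and mesenchyme markers in summed normalized CPM (lower row), as bars from 0 with 1 MRO each. The bars of Cav2 and of the Müller glia list descend through replicates 1, 5, 2, 4, 3 and 6 alike, and replicate 6 is lowest in all 6 panels.

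The genes with the pattern most like Cav2 were sought by Pearson's r of log2 normalized CPM over the 24 MROs, among the 10828 annotated genes whose base mean reached 100 normalized counts. They were Ifit2, an interferon-induced gene (r = 0.969, Spearman's rank correlation 0.957), Thrsp, a regulator of lipid synthesis (r = 0.953), Mlc1, an astrocyte membrane protein gene (r = 0.95), Pde1a, a phosphodiesterase gene (r = 0.944), and Sema6d, a semaphorin gene (r = 0.944). All 24 MROs share the time course, which alone gives high values. After each timepoint's mean was subtracted, the 5 highest were Ifit2 (r = 0.877), Plcb1 (0.836), Kif26b (0.819), Clstn2 (0.817) and Lrfn5 (0.815). Among 16175 annotated genes, Cavin1 ranked 15th in likeness to Cav2 (r = 0.932) and Cav1 46th (r = 0.913), while Cavin2 (0.64), Cavin3 (0.623) and Ehd2 (-0.768) were further away. With the timepoint means subtracted, Cavin1 stood at r = 0.723 (rank 62) and Cav1 at 0.52 (rank 913). On the log2 scale Cav2 was spread most widely at D20 and D22, where its counts lay between 0 and 24. There 2 MROs of D20 and 3 of D22 were at 3 counts or fewer, so few reads set much of the values with timepoint means subtracted.

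For Cav1 the 5 most alike were Sdha (r = 0.955), Dlg1 (0.954), 5430419D17Rik (0.953), Gnat1 (0.952), and Chst2 (0.951). With timepoint means subtracted they were Emc10 (0.722), Acp1 (0.72), Nicn1 (0.706), Zdhhc13 (0.684) and Trmt61b (0.672). No gene stood in the lists of both caveolins.

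The protein-coding neighbours of the members did not share 1 direction. Beside the caveolins on chromosome 6, Tes, on the Cav2 side, decreased by 1.51 (log2) between D20 and D30 (edgeR adjusted p = 1.94e-09), and Met, on the Cav1 side, had a log2 difference of 0.24 (adjusted p = 0.527). Beside Cavin1, Stat3 rose by 1.91 (edgeR adjusted p = 1.35e-14) and Atp6v0a1 by 0.64 (adjusted p = 1.97e-07). Beside Cavin2, Tmeff2 fell by 1.04 and Nabp1 fell by 1.63, and the antisense gene 9330175M20Rik that overlaps Cavin2 had at most 1 count. Beside Cavin3, Cckbr rose by 0.67 and Smpd1 by 0.86. Beside Ehd2, Nop53 fell by 0.44, and Bicra had a log2 difference of -0.72 (edgeR adjusted p = 0.0268).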

How the data were processed

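One RNA library was made from each of 24 MROs with a strand-specific, ribosomal RNA-depleted protocol. The authors trimmed the reads (cutadapt 1.5), aligned them with hisat2 to GRCm38/mm10, assembled new transcripts with stringtie (1.3.3) and counted reads per feature with htseq-count (0.6.1), per the submitters' processing notes and the methods. The deposited values are these raw counts, without normalization. The strand setting is not given in the sources used here.

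Each file listed 126602 features (46603 annotated genes and 79999 assembled loci), and summary lines were left out. MROs were grouped by the timepoint in their labels. Features whose base mean was under 10 normalized counts were dropped, which left 46949. They were normalized with TMM and tested with edgeR (4.0.16, R 4.3.3) by its quasi-likelihood test, in 1 fit of all 24 MROs, with Benjamini-Hochberg adjustment over all of them and a threshold of 0.01. Where the study used DESeq2, DESeq2 (1.42.0) was here an alternative. Standard errors were derived from the test statistic, and the common biological coefficient of variation was 0.385. The scripts were tested on simulated data. Symbols, coordinates and exon lengths came from GENCODE M21 of the same build, and 46005 of 46603 identifiers matched a symbol. The members and lists were chosen with earlier results of these data known. A gene of the rod marker list, and that list's summed level, are not reported here. Named besides the members were the 5 genes most like Cav2 and Cav1 by 2 measures, the nearest protein-coding neighbours, and of each list at most 3 genes past 0.01 with the largest change for D30 against D20 plus those at 0 in all MROs. Further genes of the lists, such as Ehd1, Cav3, Src and Cdh5, were added after their values were seen.

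Tried as alternatives were the test of DESeq2 and its size factors within edgeR, the absence of a filter or filterByExpr in its place, a table of annotated genes alone, a replicate block, a fit restricted to the compared timepoints, and the omission of single MROs.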

Additional observations from a re-analysis of the deposited data

Results flagged for a closer look

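In 24 groups of 6 MROs (6 genes at 4 timepoints), the gap of the highest or lowest MRO to its nearest neighbour was compared with the whole range on the log2 scale, against a critical value of 0.625, which chance exceeds in about 1 in 20 groups. For 2 groups it was larger. Cavin1 at D20 had a ratio of 0.668, since replicate 5 was at 0.213 normalized CPM (3 counts). Cavin2 at D25 had a ratio of 0.626, since replicate 2 was at 0 counts.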

How the results depend on the processing

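The numbers of members called (Cav2 left out) were recomputed under each alternative. For D22 against D20 the count of 0 became 1 (Ehd2) with DESeq2's test and with the compared timepoints only. For D25 against D22 the count of 2 became 1 (Cav1) with filterByExpr and with the compared timepoints only, became 3 (with Cavin2) with DESeq2's test, and was between 1 and 2 when each MRO was left out. For D30 against D25 the count of 1 became 2 (Cav1 and Cavin1) with DESeq2's test, DESeq2's size factors, no filter and the compared timepoints only, and was between 1 and 2 when each MRO was left out. For D30 against D20 the count of 3 became 5 with DESeq2's test and 4 with DESeq2's size factors or annotated genes only (with Cavin3) and with the compared timepoints only (with Cavin2), and was between 3 and 4 when each MRO was left out. The cause was not tested. In these 4 comparisons no fold change of a called member changed its direction. The log2 difference of Cavin1 for D22 against D20, which was not called, was between -0.347 and 0.314 when each MRO was left out, and turned negative without D20 replicate 5 (-0.059) or D22 replicate 5 (-0.347). That of Cav2, which was not tested, was between -0.304 and 0.761 over the same omissions. Cavin3 was called for D30 against D20 in 5 of 19 alternatives and Cavin2 in 2 of 19. Both passed the filter through the later timepoints, where they were higher. Their calls, and the counts above that include them, therefore cannot decide whether they rose. With annotated genes only, the level of Ehd2 at D20 was 25.9 normalized CPM. With the compared timepoints only, the filter left out Cav2, Cavin2 and Cavin3 for D22 against D20 and Cavin2 for D25 against D22.

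The replicate block gave the counts 0, 2, 1 and 3 for the 4 comparisons, the same as without it. Over 36 pairs of MROs with the same number, the correlation of deviations from the timepoint means was between -0.0833 and 0.214 (median 0.0102), so the numbers do not pair MROs. Depth limits Cavin2, Cavin3 and the early timepoints of Cav2, where several MROs were at or under 3 counts.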
